A study of Mus musculus with 16 samples.

Results

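To ask what differs in mammary adipose tissue after weight loss from obesity, formerly obese mice were compared with mice that had never been obese. The formerly obese set was every library of the 2 weight-loss groups, chosen by the sample labels, and made up 8 of the 16 libraries of the series. The comparison set was the 4 CON-LFD libraries, so 12 libraries entered the contrast, and the 4 obese DIO-HFD libraries served as a reference. All mice were female, wild-type C57BL/6N animals (C57BL/6NCrl in the methods of the study) randomized to a low-fat control diet or to a 60% high-fat diet. CON-LFD mice stayed on the low-fat diet and had a sham operation. DIO-LFD mice became obese on the high-fat diet, had a sham operation and were then moved to the low-fat diet. DIO-VSG mice became obese in the same way, underwent vertical sleeve gastrectomy, which removes most of the lateral stomach, and then received the low-fat diet. DIO-HFD mice had a sham operation and remained on the high-fat diet. Formerly obese here means this history of diet and intervention; body weights were not analysed, and a weight equal to that of CON-LFD is not implied. Every mouse, controls included, received E0771 mammary tumor cells in the 4th mammary fat pad 22 weeks after randomization, and RNA came from the opposite 9th pad of these tumor-bearing animals. Ages at collection were not given in the labels, and each group was represented by 4 animals (n = 4).

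Mammary adipose tissue is white fat crossed by epithelial ducts. Its adipocytes store triglyceride and make it from sugar through lipogenic enzymes, and they secrete leptin and adiponectin. In mice, the inguinal mammary pad also holds a lymph node, which is rich in B and T cells. Obesity is known to enlarge adipocytes and to draw immune cells into the tissue, and weight loss to reduce fat mass.

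Libraries held between 46907377 and 57610899 reads over 23179 genes. Adipoq, which encodes adiponectin and marks adipocytes, was at 30428 to 123530 normalized counts across the 16 libraries, so the adipose label was borne out by its marker. A normalized count is the number of reads of a gene divided by the size factor of its library. Markers of lymphoid cells, in contrast, varied more within CON-LFD and DIO-HFD than within the weight-loss groups, and their values stand beside the results below. Fewer cells of a type and less RNA per cell cannot be told apart in such tissue.

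A pair of pseudogenes passed in the pooled comparison. Both were higher in formerly obese mice, and no protein-coding gene passed. In each weight-loss group on its own, set against the same CON-LFD libraries, both were above CON-LFD at an unadjusted P value under 0.05. Adjusted over all genes, Gm15725 passed in DIO-LFD (adjusted P = 0.0213), Gm15432 did not (0.0553), and neither passed in DIO-VSG (0.234 for both). Of 21218 genes tested, 2 (0.00943%) had an adjusted P value below 0.05 in limma, the linear model used throughout. Gm15725 is a transcribed processed pseudogene, a reverse-transcribed copy of a messenger RNA set back into the genome (GRCm38 chromosome 16, 37882542 to 37883631, plus strand). Gm15432 is a short processed pseudogene of 195 bases (GRCm38 chromosome X, 29564014 to 29564208, minus strand).

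Because Gm15432 was nearly silent in never obese mice and is nearly the same as an expressed gene, its sequence is shown, from the GENCODE M21 transcripts. Along its whole length it aligned without gaps to the transcript of 1810037I17Rik, from base 258 to base 452, with 98.5% identity. Within this sequence, a read that covers none of the differing bases is the same in both copies. How reads were assigned was not tested. The capitals mark the 3 bases that differ from 1810037I17Rik:
Gm15432: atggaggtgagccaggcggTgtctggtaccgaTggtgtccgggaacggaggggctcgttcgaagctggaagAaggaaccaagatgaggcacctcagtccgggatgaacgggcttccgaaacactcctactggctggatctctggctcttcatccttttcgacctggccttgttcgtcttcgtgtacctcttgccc
Counted from 1 at the 5′ end of Gm15432, with the base of 1810037I17Rik written first, the differences are C20T, C33T and G72A.

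Gm15432 was at 0, 20.1, 0 and 0 normalized counts in the CON-LFD libraries. In DIO-LFD it was at 132, 85.3, 135 and 127, and in DIO-VSG at 63.3, 68.4, 55.4 and 39.1. The 8 formerly obese libraries did not overlap the 4 never obese ones. The log2 difference was 5.25 (SE 0.71, adjusted P = 0.0327), a size that depends on the pseudocount of 1 because 3 control libraries had no reads, and with a pseudocount of 10 it was 2.80. In DIO-HFD the values were 90.7, 123, 123 and 26.2, and formerly obese and obese mice differed by a log2 value of 0.06 (SE 0.71, adjusted P = 0.982). The similar gene 1810037I17Rik did not follow this pattern. It was at 1745 to 2132 normalized counts in CON-LFD, at 1587 to 2546 in DIO-LFD and at 1218 to 1999 in DIO-VSG, with a pooled log2 difference of −0.12 (SE 0.17, adjusted P = 0.753).

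Gm15725 was at 80.6, 83.8, 200 and 147 normalized counts in CON-LFD. It was at 854, 683, 800 and 683 in DIO-LFD and at 399, 568, 281 and 832 in DIO-VSG, so that here, too, the groups did not overlap. The mean rose from 128 ± 57.1 (SD, n = 4) in never obese to 638 ± 208 (SD, n = 8) in formerly obese mice, with a log2 difference of 2.33 (SE 0.28, adjusted P = 0.018). DIO-HFD libraries had 876, 662, 808 and 578, and formerly obese mice differed from them by −0.26 (SE 0.28, adjusted P = 0.731). All 1090 bases of Gm15725 lie within a transcript of Lrrc58, at bases 2288 to 3377 of its 8604, with 100% identity. The Lrrc58 gene spans chromosome 16, 37868389 to 37888858, and holds Gm15725, so both names cover the same stretch of DNA. Every base of Gm15725 is therefore also Lrrc58 transcript. In a different gene, the cytoskeletal actin gene Actb, 1128 aligned positions matched Gm15725 with 92.1% identity. Reads of Actb may also be shared with the pseudogene, and how reads were assigned was not tested. Lrrc58 was at 16083 to 28322 normalized counts in CON-LFD and at 14085 to 40962 in formerly obese mice (log2 difference −0.25, SE 0.26, adjusted P = 0.666). Actb was at 87431 to 188373 and at 129795 to 198455 (log2 difference 0.09, SE 0.20, adjusted P = 0.855). Neither gene passed, and for both the groups overlapped.

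**Figure D1:**
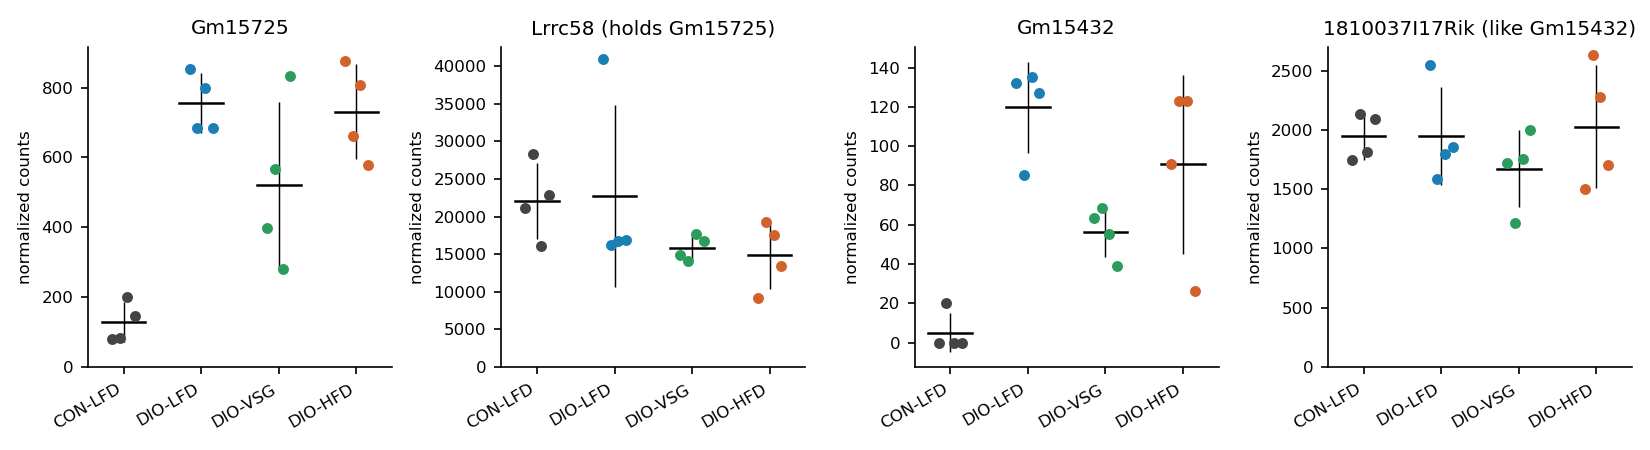
Normalized counts of the 2 pseudogenes that passed and of a gene that shares sequence with each, by group; points are libraries, horizontal bars means and vertical lines 1 SD. Gm15725 is at 80.6 to 200 in CON-LFD and at 281 or more in every formerly obese library, Gm15432 is at 0 in 3 of 4 CON-LFD libraries, and the sharing genes Lrrc58 and 1810037I17Rik overlap between groups.

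Both calls were near the threshold. With the 12 libraries fitted without DIO-HFD, 0 genes passed in limma, with 2137 higher and 1385 lower at a nominal, that is unadjusted, P value under 0.05, and the adjusted P values were 0.0636 for Gm15725 and 0.0803 for Gm15432. When single libraries were left out, Gm15725 lost its call in 5 of 16 fits and Gm15432 in 12 of 16, though the log2 difference never fell below 2.14 and 4.89.

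Leaving out CON-LFD replicate 3, the control with the most lymphoid RNA, gave 32 genes (25 higher and 7 lower) in place of 2, and leaving out CON-LFD replicate 2 gave 5. The 32 included Gm15725 and Gm15432, 3 cytosolic ribosomal protein genes (Rpl27, Rps13 and Rpl21), the immediate early genes Ier5 and Klf2, and Spsb3. Among the 7 that were lower there were Susd4, Stk39 and Lect1, named after their values were seen.

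Taken singly, DIO-LFD differed from CON-LFD at 1 gene (0.00471%) and DIO-VSG at 0 (0.0%) by the adjusted P value in limma, with 1328 (6.26%) and 3771 (17.8%) genes at the nominal level.

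Below the adjusted threshold, 2392 genes (11.3%) had a nominal P value under 0.05. Of these, 1321 genes (6.23%) were higher and 1071 (5.05%) lower in formerly obese mice. These counts depended on single controls. They were 951 and 509 without CON-LFD replicate 1, 751 and 777 without replicate 2, 3211 and 2051 without replicate 3, and 543 and 671 without replicate 4, so that lower genes were the majority without replicate 2 or 4. A difference was called shared where the pooled contrast and each weight-loss group had a nominal P value under 0.05 in the same direction. By this looser rule, 240 genes (1.13%) were higher and 185 (0.872%) lower in both groups. Both groups were set against the same 4 CON-LFD libraries, so their agreement is not independent and the counts are only a description. Predicted genes and pseudogenes were 26.4% of all genes tested, 46.2% of the shared higher genes and 25.4% of the shared lower genes. All 8 formerly obese libraries lay above all 4 CON-LFD libraries at 70 genes (0.33%) and below them at 83 (0.391%). When the obese libraries were added, so that 12 libraries were set against 4, there were 22 (0.104%) and 27 (0.127%).

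Ribosomal protein genes, which encode the structural parts of the ribosome, led the higher genes chosen by P value once predicted genes and pseudogenes were set aside. The choice was limited to genes with a nominal P value under 0.05 in each weight-loss group, no overlap between the 8 and the 4 libraries and a mean of at least 50 normalized counts. Of the 12 with the smallest P values, 8 encoded ribosomal proteins (Rpl21, Rpl27, Rpl10, Rpl37, Rpl9, Rpl30, Rpl37a and Rpl19). The others were Spsb3, a SOCS-box protein, Psmg3, a proteasome assembly chaperone, Ctu2, a tRNA-modifying enzyme, and the microRNA locus Mir8094. None of the 12 passed, with adjusted P values of 0.342 to 0.395.

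Rpl21 was at 2557, 2463, 3207 and 2086 normalized counts in CON-LFD. In DIO-LFD it was at 4034, 3733, 4451 and 4068, and in DIO-VSG at 4220, 4193, 3701 and 3749. The log2 difference was 0.65 (SE 0.13, adjusted P = 0.342), and, as the choice required, the lowest formerly obese library was above the highest control. Rpl27 was at 1043, 1069, 1345 and 597 in CON-LFD and at 1547 to 2043, with a median of 1662, in formerly obese mice (log2 difference 0.80, SE 0.17, adjusted P = 0.342). Spsb3 was at 758, 829, 990 and 760 in CON-LFD and at 1017 to 1161 in formerly obese mice (log2 difference 0.39, SE 0.08, adjusted P = 0.342). DIO-HFD was at 3162 to 5543 for Rpl21, at 1401 to 2074 for Rpl27 and at 986 to 1234 for Spsb3, so obese libraries reached the same levels.

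A list of 81 cytosolic ribosomal protein genes was drawn up by gene symbol after these values were seen and is therefore only described. It may not be complete, and it includes the related genes Rpl7l1, Rpl22l1 and Rps27rt. In formerly obese mice, 78 of the 81 were above CON-LFD and 3 were below. At a nominal P value under 0.05, 45 were higher and 0 lower, against 6.23% of all genes higher. There were 22 higher in both weight-loss groups, against 1.13% of all genes, and 9 with no overlap between libraries, against 0.33%. None passed the adjusted threshold in the main limma fit. The median log2 difference was 0.30, against −0.003 over all genes tested. It was 0.17 in DIO-LFD, 0.44 in DIO-VSG and 0.17 in DIO-HFD. The exceptions below CON-LFD were Rps26 (−0.17), Rps12 (−0.08) and Rpl29 (−0.05).

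Other values moved with this group. The ribosomal score, the average over the list of log2 values centred gene by gene on all 16 libraries, was −0.22, −0.29, 0.08 and −0.43 in CON-LFD, with the highest value in replicate 3. That library also had the highest B cell score of the controls. With the B cell score added to the model, the median log2 difference of the ribosomal genes was 0.07, with 21 higher and 3 lower at a nominal P value under 0.05. Without CON-LFD replicate 4 there were 28 higher, and without CON-LFD replicate 3 there were 63. The slope of the library values on transcript length ran from −0.047 to −0.017 in DIO-VSG, from −0.019 to 0.008 in DIO-LFD and from −0.010 to 0.040 in CON-LFD. With this slope in the model, an alternative chosen after the data were seen, the median was 0.02 with 6 higher and 2 lower.

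**Figure D2:**
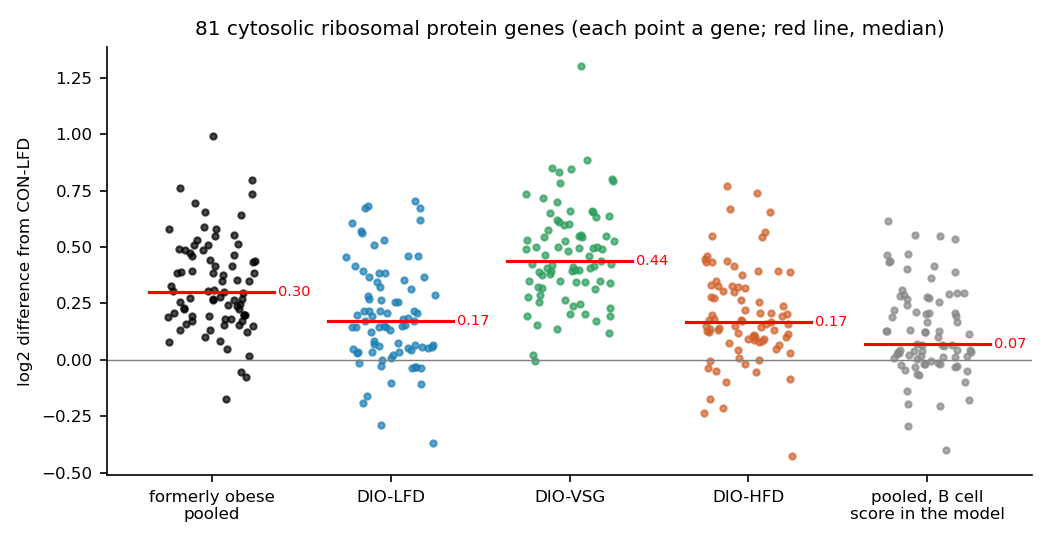
Log2 difference from CON-LFD of the 81 cytosolic ribosomal protein genes (vertical axis) in formerly obese mice pooled, in DIO-LFD, DIO-VSG and DIO-HFD, and in the pooled contrast with the B cell score in the model; each point is a gene and the red line the median. The pooled median of 0.30 is 0.07 once the B cell score is included.

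Pseudogenes named for ribosomal proteins lay in the same direction. Of 91 tested, 72 were above CON-LFD, 29 were higher and 1 lower at a nominal P value under 0.05 (6.23% and 5.05% of all genes), and the median log2 difference was 0.35. With the B cell score in the model there were 13 higher and 10 lower, with a median of 0.03, and with the transcript-length slope 10 higher and 7 lower, with a median of −0.04. Such copies may share reads with their parent genes, and how reads were assigned was not tested. Rps10-ps1, for example, is 98.8% identical to Rps10 over 495 bases. It was at 91.6, 175, 164 and 114 normalized counts in CON-LFD and at 217 to 327 in formerly obese mice (log2 difference 1.02, SE 0.18, adjusted P = 0.206), whereas Rps10 itself differed by 0.25 (SE 0.12, adjusted P = 0.44). Rpl6l, 98.7% identical to Rpl6, was at 1661 to 2431 in CON-LFD and at 2508 to 3397 in formerly obese mice (log2 difference 0.62, SE 0.11, adjusted P = 0.178). Rpl6 differed by 0.18 (SE 0.11, adjusted P = 0.481).

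Among genes lower in formerly obese mice, Slc5a8, which encodes a sodium-coupled transporter of short-chain fatty acids and lactate, had the smallest P value of the 12 chosen in the same way. It was at 1958, 1784, 1319 and 1894 normalized counts in CON-LFD. DIO-LFD had 917, 1189, 954 and 960, and DIO-VSG had 723, 369, 712 and 893. As the choice required, no library of one set reached the other, and the log2 difference was −1.10 (SE 0.22, adjusted P = 0.342). DIO-HFD was at 1054, 1816, 1139 and 987, with 1 library in the CON-LFD range and the other 3 in the range of formerly obese mice.

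Pak3, a kinase activated by small GTPases, was at 504, 487, 259 and 363 in CON-LFD and at 172 to 259 in formerly obese mice, with DIO-LFD replicate 3 just below CON-LFD replicate 3 (log2 difference −0.89, SE 0.21, adjusted P = 0.389). Cys1, which encodes the cilium-associated protein cystin, was at 522, 486, 478 and 972 in CON-LFD. It was at 187, 348, 277 and 161 in DIO-LFD and at 381, 411, 256 and 242 in DIO-VSG, a log2 difference of −1.12 (SE 0.28, adjusted P = 0.395). In DIO-HFD it was at 465, 511, 455 and 987, close to the range of the never obese mice. Osbpl3, an oxysterol-binding protein relative, was at 1990 to 2596 in CON-LFD, at 1414 to 1935 in formerly obese mice and at 1670 to 2875 in DIO-HFD (pooled log2 difference −0.52, SE 0.13, adjusted P = 0.393). For Cys1 and Osbpl3, formerly obese mice had lower means than obese mice as well, by log2 values of −1.08 (SE 0.28, adjusted P = 0.216) and −0.44 (SE 0.13, adjusted P = 0.276), neither of which passed. Other lower genes chosen by this rule had the same sign, among them Slc5a8 (−0.60, SE 0.22, adjusted P = 0.364) and Pgm2l1 (−0.31, SE 0.08, adjusted P = 0.207).

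The other 8 lower genes chosen by this rule were Dpy19l4, Cpne3, Sppl2a, Qser1, Fcho2, Trim37, Zc3h14 and Pgm2l1. They include an intramembrane protease (Sppl2a), an endocytic adaptor (Fcho2), a ubiquitin ligase (Trim37) and a poly(A)-binding protein (Zc3h14). Their differences were smaller, from −0.24 to −0.38 on the log2 scale, with adjusted P values of 0.342 to 0.439. Dpy19l4, for example, was at 2741 to 3081 normalized counts in CON-LFD and 2326 to 2571 in formerly obese mice. For Dpy19l4, Cpne3, Sppl2a and Zc3h14 the DIO-HFD libraries, too, were all below CON-LFD.

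Pon1, which encodes a paraoxonase carried on high-density lipoprotein, had lower values in formerly obese mice, with every DIO-VSG library below every DIO-LFD library. It was at 219, 170, 144 and 217 normalized counts in CON-LFD, at 140, 81.3, 88.6 and 122 in DIO-LFD, and at 44.6, 36, 28.7 and 37.2 in DIO-VSG. Every formerly obese library was below every control (pooled log2 difference −1.56, SE 0.33, adjusted P = 0.342). The difference between DIO-VSG and DIO-LFD was −1.51 (SE 0.38, adjusted P = 0.509), and that of DIO-LFD from CON-LFD had a nominal limma P value of 0.0523, so Pon1 did not meet the rule for a shared difference. DIO-HFD was at 12 to 62.3. Pon3 was also below CON-LFD (−0.50, SE 0.22, adjusted P = 0.439).

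Major urinary proteins, small carriers of pheromones and lipids, were below CON-LFD in formerly obese mice at all 10 genes tested, with a median log2 difference of −1.66. Mup9 and Mup3 had a nominal P value under 0.05, against 5.05% of all genes lower, and none passed. Mup9 was at 1521, 743, 637 and 1988 normalized counts in CON-LFD. It was at 25.1, 543, 195 and 481 in DIO-LFD and at 66.4, 144, 352 and 110 in DIO-VSG (log2 difference −2.74, SE 0.80, adjusted P = 0.439). DIO-HFD libraries were at 4.37 to 46.5, overlapping the lowest DIO-LFD library. Mup11 overlapped between groups, with 82.1 to 258 in CON-LFD and 7.64 to 393 in formerly obese mice (log2 difference −1.57, SE 0.83, adjusted P = 0.454). These genes are near-identical copies, so the assignment of reads among them is uncertain. The list was drawn up knowing that such genes had been pointed out in these libraries.

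**Figure D3:**
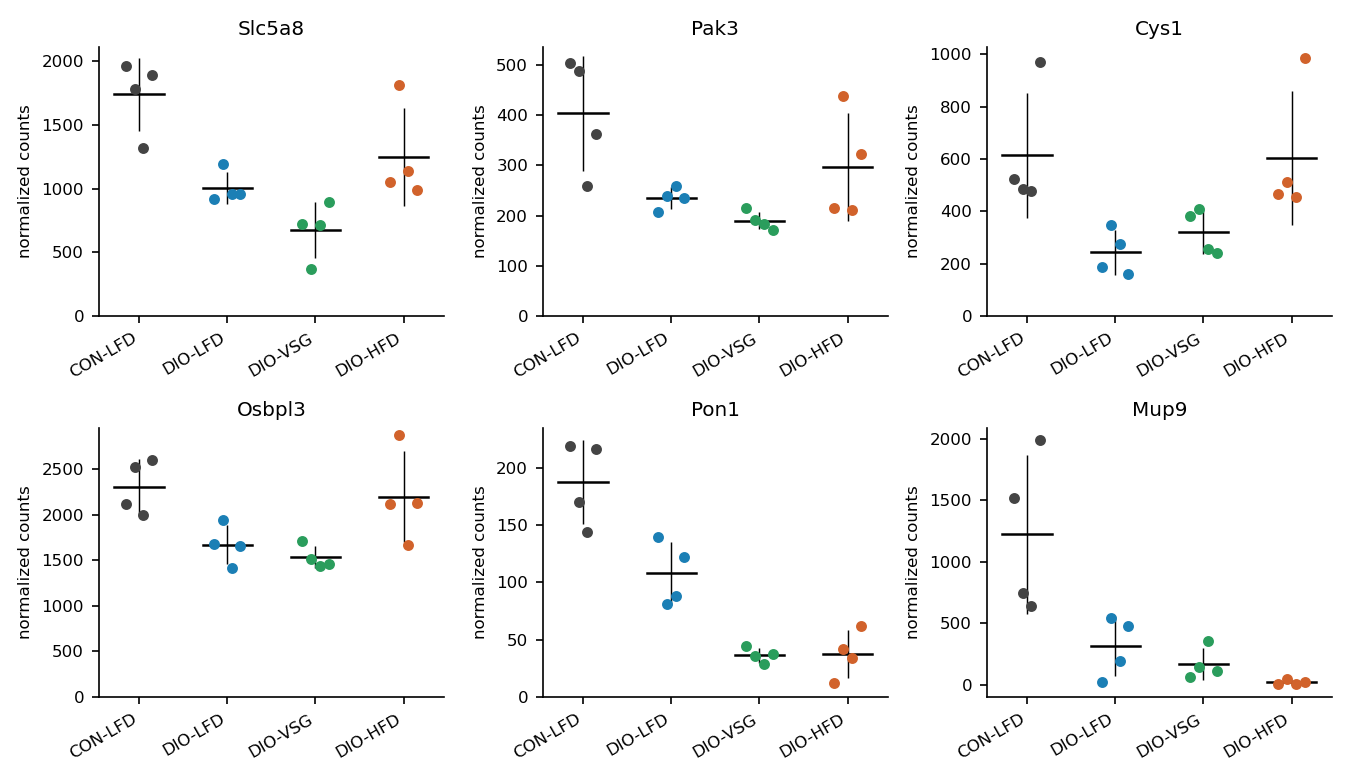
Normalized counts by group of 6 genes with lower means in formerly obese than in CON-LFD mice; points are libraries, horizontal bars means and vertical lines 1 SD. Formerly obese libraries do not overlap CON-LFD for any of the 6, and Slc5a8, Pak3, Cys1 and Osbpl3 were chosen on that condition. DIO-HFD is at the CON-LFD level for Cys1 and Osbpl3 and has lower means than the pooled weight-loss mice for Pon1 and Mup9.

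B and T cell genes had the largest median differences of the lists in the pooled contrast. All 23 B cell genes were above CON-LFD, 16 of them at a nominal P value under 0.05, with a median log2 difference of 2.85. All 24 T cell genes were above it, 6 at that level, with a median of 2.03. Of all genes, 6.23% were higher at that level. None passed the adjusted threshold and none was shared by both groups.

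The spread within the controls was as large as the difference. Fcrla, an Fc receptor-like protein of B cells, was at 522, 19.1, 2173 and 40.2 normalized counts in CON-LFD and at 2932, 105, 42.6 and 1745 in DIO-HFD. In DIO-LFD it was at 456, 1030, 1010 and 895, and in DIO-VSG at 2281, 2120, 2218 and 1916. Every formerly obese library was at 456 or more, while 2 of 4 libraries in each of the other groups were at 105 or less. The pooled log2 difference was 2.90 (SE 1.23, adjusted P = 0.439). Glycam1, a ligand on the venules of lymph nodes, showed the same libraries as low, at 6880, 7.42, 23463 and 114 in CON-LFD and at 3990 to 24584 in formerly obese mice (log2 difference 4.34, SE 1.85, adjusted P = 0.439). The summed level of the B cell list was 10105 to 235280 in CON-LFD, 29564 to 329569 in DIO-HFD, 70067 to 118403 in DIO-LFD and 181256 to 229048 in DIO-VSG. Without CON-LFD replicate 2, or without CON-LFD replicate 4, 0 of the 23 genes had a nominal P value under 0.05, and without replicate 3 there were 20. The 6 T cell genes were likewise 0 without replicate 2 or 4, 11 without replicate 1 and 23 without replicate 3. With the transcript-length slope in the model, 22 of 23 B cell genes and all 24 T cell genes were below CON-LFD, with medians of −0.44 and −0.61. With the B cell score in the model the T cell median was −0.12. The lymph node stroma list (median 1.01, 4 of 14 genes at that level) and the MHC class II list (0.58, 2 of 12) lay in the same direction, again beside 6.23% of all genes. Without CON-LFD replicate 2 their medians were 0.54 and 0.11, and with the B cell score in the model −0.23 and −0.26.

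Genes of the NF-kB inflammatory response and immediate early genes were mostly above CON-LFD, at 26 of 30 and 16 of 20 genes, though none passed. Il6, which encodes an inflammatory cytokine, was at 0, 4.24, 1.84 and 4.02 normalized counts in CON-LFD and at 4.11 to 24.0 in formerly obese mice, near the limit of detection. Its log2 difference was 1.94 (SE 0.52, adjusted P = 0.439), and it was 1 of 3 NF-kB genes of 30 at a nominal P value under 0.05, with Rel and Relb, against 6.23% of all genes higher. Rel and Relb had their highest control value in CON-LFD replicate 3, as the lymphoid genes did. The median of the list was 0.51 with and 0.22 without CON-LFD replicate 2. With the B cell score in the model it was −0.02, with 14 genes above and 16 below CON-LFD, and with the transcript-length slope it was −0.07. The count of 3 genes was 12 without CON-LFD replicate 3 and 1 without CON-LFD replicate 4.

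Among 20 immediate early genes, 7 were higher at a nominal P value under 0.05, against 6.23% of all genes. There were 3 without CON-LFD replicate 2, 2 with the B cell score in the model and 1 with the transcript-length slope. Ier5, the one that was shared by both groups, was at 2246, 1725, 3806 and 1484 in CON-LFD and at 3297 to 4412 in formerly obese mice (log2 difference 0.81, SE 0.23, adjusted P = 0.439). Socs3, an inhibitor of cytokine signaling, was at 834 to 1333 in CON-LFD and at 1183 to 2252 in formerly obese mice (0.69, SE 0.19, adjusted P = 0.439). Of 14 neutrophil and mast cell genes, 10 were above and 4 below CON-LFD, with 5 higher and 1 (Kit) lower at the nominal level, where 6.23% and 5.05% of all genes lay. The median was 0.24, and 0.029 without DIO-VSG replicate 2. Ngp, a neutrophil granule gene, was at 1.1, 7.42, 17.5 and 1.0 in CON-LFD and at 17.2 to 631 in formerly obese mice (3.86, SE 1.36, adjusted P = 0.439). Of 24 macrophage genes, 13 were above CON-LFD, with a median of 0.08 (0.17 in DIO-LFD and −0.21 in DIO-VSG). The direction turned with single controls, from −0.27 without CON-LFD replicate 2 to 0.48 without CON-LFD replicate 4. The exception at a nominal P value under 0.05 was Cd5l, at 21.2 to 598 in CON-LFD and 156 to 3019 in formerly obese mice (2.26, SE 0.96, adjusted P = 0.439). Of 25 interferon response genes, 15 were above and 10 below CON-LFD, with a median of 0.09. The 1 gene at a nominal P value under 0.05, against 5.05% of all genes lower, was Gbp2, an interferon-induced GTPase. It had lower values, at 4050 to 4653 in CON-LFD and 2898 to 4051 in formerly obese mice (−0.31, SE 0.08, adjusted P = 0.439).

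**Figure D4:**
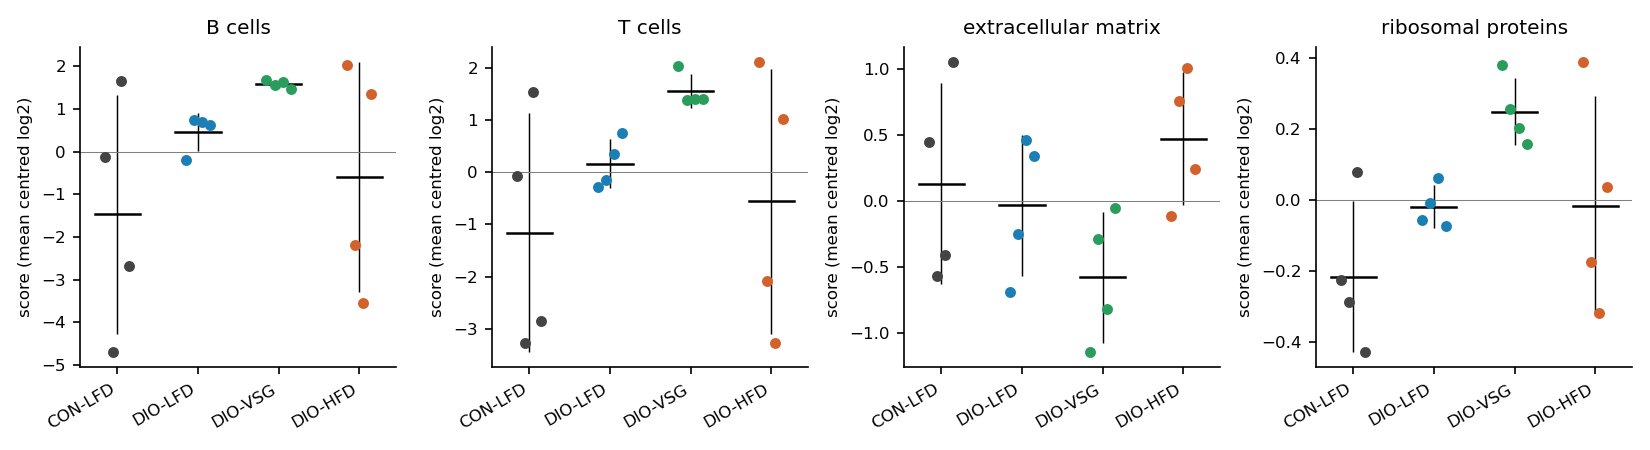
Scores of 4 gene lists by group, each the average over its genes of log2 values centred gene by gene on all 16 libraries; points are libraries, horizontal bars means and vertical lines 1 SD. B cell scores run from −4.71 to 1.66 in CON-LFD and from −0.20 to 1.69 in formerly obese mice, and the control with the highest B cell score also has the highest ribosomal score, 0.08.

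Of 30 extracellular matrix genes, 29 were below CON-LFD, with a median log2 difference of −0.45 (−0.19 in DIO-LFD and −0.73 in DIO-VSG). Bgn and Postn had a nominal P value under 0.05, a count near the 5.05% of all genes, and Bgn was below CON-LFD in both groups at that level. Bgn, which encodes the proteoglycan biglycan, was at 26251, 18881, 18169 and 31937 in CON-LFD and at 11235 to 25729, with a median of 14900, in formerly obese mice (−0.60, SE 0.20, adjusted P = 0.439). DIO-LFD replicate 1 was the formerly obese library that overlapped the controls. DIO-HFD was at 21748 to 33055, and the matrix list had a median of 0.28 there relative to CON-LFD. With the transcript-length slope in the model the pooled median of the list was 0.09, with 18 genes above and 12 below CON-LFD. Without CON-LFD replicate 4 it was −0.12, with 0 genes at a nominal P value under 0.05, and without CON-LFD replicate 3 there were 4. Without CON-LFD replicate 2 the median was −0.72, and without replicates 2 and 3 together, an alternative chosen after the data were seen, it was −1.20, with 15 genes lower at that level.

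For the cell cycle, 29 of 30 genes were below CON-LFD, with a median of −0.59, and 4 (Nusap1, Ccnb2, Tyms and Mki67) had a nominal P value under 0.05, against 5.05% of all genes lower. Mki67, a marker of dividing cells, was at 11093, 2325, 5214 and 2976 in CON-LFD and at 953 to 4076 in formerly obese mice (−0.97, SE 0.45, adjusted P = 0.44). CON-LFD replicate 1 was the highest library for all 4, and without it the median was −0.18 and 0 genes were at that level, against 7 without CON-LFD replicate 2. Of 25 mammary epithelial genes, 9 were above and 16 below CON-LFD, with a median of −0.35 (−0.16 without CON-LFD replicate 1), and 4 were lower at the nominal level (Trp63, Kit, Acta2 and Krt14), again against 5.05% of all genes. Trp63 was at 1058 to 2377 in CON-LFD and at 609 to 1430 in formerly obese mice (−0.80, SE 0.27, adjusted P = 0.439), and Krt14 at 2103 to 4825 and 1334 to 2912 (−0.84, SE 0.36, adjusted P = 0.439).

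Core clock genes lay in opposing directions, and none passed. Arntl, which encodes the activator BMAL1, was at 301, 180, 558 and 229 in CON-LFD. It was at 941, 428, 692 and 868 in DIO-LFD and at 556, 637, 498 and 494 in DIO-VSG, so that CON-LFD replicate 3 alone of the controls reached the formerly obese range (log2 difference 1.09, SE 0.29, adjusted P = 0.439). Genes of the opposing arm had lower values. Nr1d2, a repressor of Arntl, was at 7960, 9709, 7292 and 9170 in CON-LFD and at 3580 to 7284 in formerly obese mice, with no overlap (−0.53, SE 0.16, adjusted P = 0.439). Per3 was at 5659 to 10875 and at 2327 to 6533 (−0.87, SE 0.28, adjusted P = 0.439), and Ciart at 367 to 591 and at 127 to 519 (−0.89, SE 0.33, adjusted P = 0.439). In all, 1 of 20 clock genes was higher and 5 were lower at a nominal P value under 0.05 (all genes, 6.23% and 5.05%), and the median was −0.32. Without CON-LFD replicate 2 the median was −0.19, and 3 were lower in place of 5, as without CON-LFD replicate 4. DIO-HFD differed from CON-LFD in the same directions, by 1.28 for Arntl and −0.46 for Nr1d2. The time of day of collection was not given in the labels.

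Genes of fat metabolism showed no difference that passed. Of 24 lipogenic genes, 17 were above CON-LFD and 0 had a nominal P value under 0.05. Their median log2 difference was 0.20 in formerly obese mice and −1.43 in DIO-HFD. The pooled median was −0.12 without CON-LFD replicate 3 and 0.45 without DIO-LFD replicate 1. Acaca, the carboxylase that commits acetyl-CoA to fatty acids, was at 74055, 52504, 23297 and 44973 in CON-LFD and at 19535 to 128797 in formerly obese mice, whereas DIO-HFD was at 4712 to 11640. The pooled difference from CON-LFD was 0.69 (95% interval −0.42 to 1.80, adjusted P = 0.557). Scd1, the stearoyl-CoA desaturase, differed by −0.57 (95% interval −1.84 to 0.71, adjusted P = 0.674). These intervals still allow a fold of more than 2 in one direction.

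Leptin, encoded by Lep and secreted in proportion to fat mass, was at 31744 to 67714 in CON-LFD and at 9321 to 104465 in formerly obese mice (log2 difference −0.33, SE 0.53, adjusted P = 0.795). Adipoq differed by −0.36 (SE 0.27, adjusted P = 0.564). Cacna1e, a calcium channel subunit gene at 4896 to 15847 in DIO-HFD, was at 796 to 2749 in CON-LFD and at 1336 to 2916 in formerly obese mice (0.69, SE 0.34, adjusted P = 0.442). Ucp1, the uncoupling protein of thermogenic adipocytes, ranged from 292 to 24043 in CON-LFD and from 15.3 to 21836 in formerly obese mice, with overlapping groups (−1.82, SE 1.76, adjusted P = 0.652).

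All 20 fatty acid oxidation genes and all 17 thermogenic genes lay below CON-LFD, with medians of −0.33 and −0.59 and 0 genes at a nominal P value under 0.05. Without CON-LFD replicate 2 these medians were −0.05 and 0.06, and without CON-LFD replicate 3 they were −0.54 and −1.27. With the B cell score in the model they were 0.11 and 0.06, and with the transcript-length slope −0.05 and −0.36. Of 20 genes of branched-chain amino acid catabolism, 18 were below CON-LFD and 3 (Acadsb, Mccc1 and Ivd) had a nominal P value under 0.05, against 5.05% of all genes lower. None was shared by both groups. The median of this list was −0.27 (−0.115 in DIO-LFD and −0.45 in DIO-VSG). It was −0.04 with the B cell score in the model and also −0.04 with the transcript-length slope. Oxidative phosphorylation genes had a median of −0.04 over 70 genes, and its direction turned with single controls and with scaling. It was −0.19 without CON-LFD replicate 3, 0.12 without CON-LFD replicate 2 and 0.05 with libraries scaled to the same total.

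**Figure D5:**
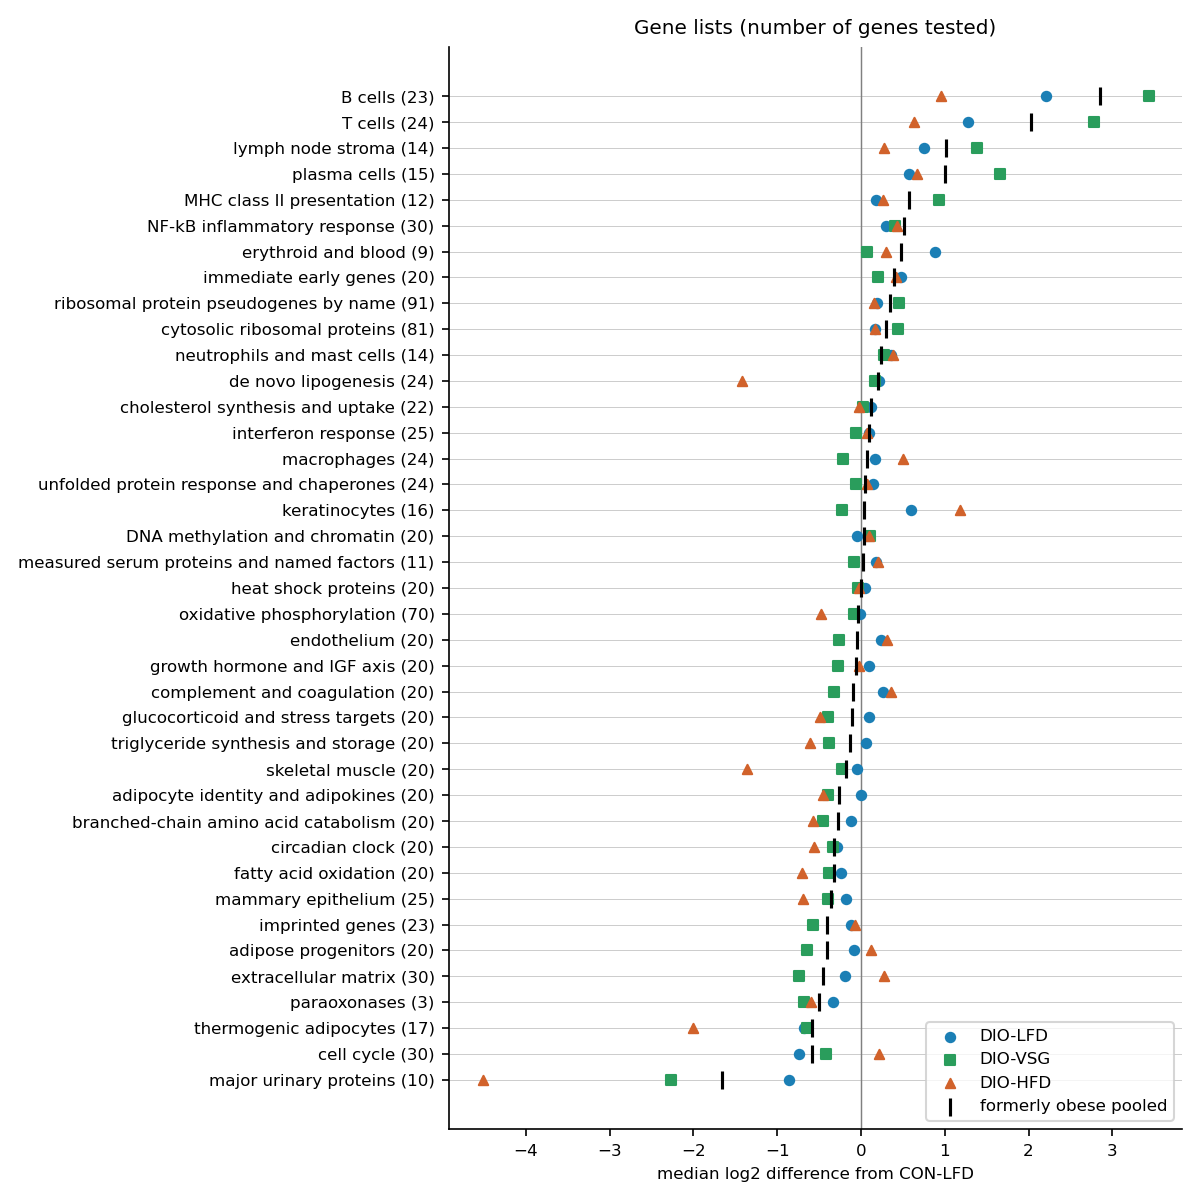
Median log2 difference from CON-LFD (horizontal axis) of each gene list, with the number of genes tested in parentheses, for DIO-LFD, DIO-VSG, DIO-HFD and the pooled formerly obese mice. Lymphoid lists are at the top (B cells, 2.85 pooled) and major urinary proteins at the bottom (−1.66), and for de novo lipogenesis the weight-loss groups are near 0 while DIO-HFD is at −1.43.

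Set against obese mice, formerly obese mice had 0 genes past the adjusted threshold in limma, with 2231 (10.5%) at a nominal P value under 0.05. Weight loss by surgery and by diet likewise differed at 0 genes, with 2061 (9.71%) at that level. Limma's voom method on the recovered reads also gave 0 in both. Obese and never obese mice differed at more than these (8 genes, 0.0377%, with 2735 or 12.9% at the nominal level).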

How the data were processed

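RNA of 16 mammary fat pads was profiled, 1 library per mouse, with groups taken from the sample labels. According to the study's methods, the authors aligned stranded total RNA reads to GRCm38 with STAR, quantified genes with salmon and used DESeq2, whereas the submitters' processing notes list TopHat2 2.0.7 and HTSeq 0.5.3p9. What the authors deposited was log2-scale output of a variance-stabilizing transformation, not the counts that the design assumed. They were inverted to normalized counts, and 100.0% of values were whole reads within 0.01. Genes reaching 10 normalized counts in 4 or more libraries (21218) entered 1 limma-trend fit of all 16 libraries by group, on log2(normalized count + 1), a scale that understates changes of low genes (R 4.3.3 with limma 3.58.1). Contrasts were two-sided, with Benjamini-Hochberg adjustment over all genes and a threshold of 0.05. P values measure the spread between these mice. Averaged over genes, counting noise was minor at these depths. This does not cover genes with few reads, such as Gm15432, Il6 and Ngp, for which counting noise was not measured separately. No batch was given in the labels.

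The members and gene lists were chosen with earlier results of these data known. Named genes were the calls, the 12 genes with the smallest P values in each direction among those that met set conditions (no predicted genes or pseudogenes, a mean of at least 50 normalized counts, nominal P value under 0.05 in each weight-loss group, no overlap between the 8 and the 4 libraries), up to 4 genes per list by P value, and 9 fixed genes. Ribosomal lists were added after values were seen. Some genes that the rule named are not reported here. Sequence comparisons used blastn on GENCODE M21 transcripts. The test was tried on simulated data with known changes. Alternatives covered filters, scaling, weights, covariates and single libraries left out.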

Additional observations from a re-analysis of the deposited data

Results flagged for a closer look

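In each group of 4 libraries, the highest or lowest value was set against the others, and a library whose gap to its neighbour exceeded Dixon's 95% critical value, as a share of the range of the group, was marked as standing apart. Of 344 gene and group combinations 19 were marked, and of 156 list score and group combinations 9. Chance alone marks about 1 in 20, so these counts are close to the rate given by chance.

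Among the called genes, Gm15432 stood apart in CON-LFD replicate 2 (20.1 normalized counts, the others at 0) and in DIO-LFD replicate 2 (85.3, below the others). Among genes near the threshold, Rpl10 was high in DIO-VSG replicate 2 (2836), Rpl30 in DIO-LFD replicate 3 (4683), Rpl37a in CON-LFD replicate 3 (6608) and Fcho2 in DIO-LFD replicate 1 (5165). Qser1 was low in DIO-LFD replicate 4 (2826) and Mir8094 in CON-LFD replicate 4 (22.1). Cys1 was high in CON-LFD replicate 4 (972) and in DIO-HFD replicate 4 (987), Zc3h14 in DIO-HFD replicate 3 (4357) and Pgm2l1 in CON-LFD replicate 4 (1690).

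Among list genes, DIO-LFD replicate 1 stood low for Postn (6616) and H2-Ob (1833). Nusap1 was high in DIO-LFD replicate 2 (420), Tyms in CON-LFD replicate 1 (872), Nr1d2 in DIO-HFD replicate 4 (7515), Stard4 in DIO-HFD replicate 1 (1432) and Lep in CON-LFD replicate 4 (67714).

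Among list scores, given as the gap to the nearest library on the log2 scale, DIO-LFD replicate 1 was low for MHC class II presentation (0.94) and B cells (0.82), and DIO-LFD replicate 2 for the growth hormone and IGF axis (0.20). DIO-VSG replicate 1 was low for de novo lipogenesis (1.55) and high for T cells (0.64), and DIO-VSG replicate 2 was low for endothelium (0.087). Skeletal muscle genes were high in DIO-LFD replicate 4 (5.17) and in DIO-HFD replicate 2 (0.43), and paraoxonases were low in DIO-HFD replicate 1 (1.07).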

How the results depend on the processing

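The pooled count of 2 genes, both shared, was 2 with the deposited values as they stand, a pseudocount of 10, no filter or libraries scaled to the same total. It was 1 with a mean of at least 100 normalized counts, with quantile normalization or with the B cell score as covariate. It was 0 in the 12 libraries alone with 3 groups or with weight-loss groups as 1 group, with voom, without predicted genes and pseudogenes, and with the transcript-length slope as covariate (added after seeing the data). Array weights gave 1153 pooled and 1020 shared genes, 3383 against DIO-HFD and 184 between DIO-VSG and DIO-LFD, with a weight of 10.9 on DIO-HFD replicate 4. The pooled genes of that fit included 35 of the 81 cytosolic ribosomal protein genes and 23 of the 91 ribosomal protein pseudogenes. Leaving out 1 library gave 0 to 32 genes, pooled and shared alike, and 0 to 10 against DIO-HFD, the highest without DIO-LFD replicate 1; without DIO-VSG replicate 1 there was 1. Without CON-LFD replicates 2 and 3 together, also added after seeing the data, there were 40 pooled and shared genes and 1 against DIO-HFD. The cause of these changes was not tested.

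Among 2392 genes at a nominal P value under 0.05, 55.2% were higher. With quantile normalization the share was 41.6%, and with libraries scaled to the same total it was 75.9%. Replicate numbers were shared between groups. Of 24 same-numbered pairs 9 had a correlation over 0.1, with a range of −0.609 to 0.534. This lay within the range of pairs with different numbers, −0.628 to 0.742, and no pairing by number was seen. The replicate block gave 0 genes for the pooled and 0 for the shared count.

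Named genes kept their direction except as follows. With the transcript-length slope as covariate, the log2 difference became −0.092 for Relb, −0.25 for Rel, −0.44 for H2-Ob, −0.42 for H2-DMb2, −0.048 for Pax5, −0.44 for Ms4a1, −0.40 for Fcrla, −0.37 for Ccr7, −0.35 for Il7r and −0.48 for Cd3d. It became −0.27 for Glycam1, −0.20 for Madcam1, −0.58 for Ccl21a, −0.52 for Chst4, 0.67 for Lep and 0.27 for Adipoq. With the B cell score as covariate it became −0.10 for H2-DMb2, 0.31 for Lep and 0.10 for Adipoq.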
